A study of Mus musculus with 2 samples.

Results

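The ELF1 peaks described here lie at the promoters of noncoding RNA genes and away from those of protein-coding genes. A peak was a member when its summit lay within 1 kb of a transcript start of a noncoding gene in the GENCODE M1 annotation and over 2 kb from every transcript start of a protein-coding gene. Only positions chose the members, so their signal and sequence were not used by the rule. Of 18804 peaks in the mm9 list, 257 were members, and their nearest noncoding starts belonged to 228 genes. The study mapped ELF1 by ChIP-seq in CH12.LX, an immortalized mouse B-cell lymphoma line of strain B10.H-2aH-4bp/Wts. There was 1 group of 2 biological replicates, both from the same donor per the labels, with no treatment or genotype named. In ChIP-seq, DNA bound to a protein is pulled down with an antibody and sequenced, and sites with many such fragments are called as peaks. The mm9 list was called on both replicates together, while mm10 lists exist for each replicate, so comparisons are between classes of peaks and between replicates. Read depth cannot be read from these lists, and every 95% interval given for a share is an exact binomial one that covers counting error only.

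ELF1 is an ETS family transcription factor expressed in lymphocytes, and ETS proteins bind DNA around a GGAA core. Long noncoding RNAs are transcribed by RNA polymerase II, often capped and spliced, and include intergenic transcripts (lincRNA), transcripts antisense to a gene, and host genes whose introns release small nucleolar RNAs or microRNAs. Transfer RNA genes are transcribed by RNA polymerase III from promoter elements inside the gene, the A box and the B box.

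The strongest members fell into a pair of sequence types, and both are shown first because the values below turn on them. Each sequence is 101 bases of the NCBIM37 (mm9) genome centred on the summit, read 5′ to 3′, with its position and strand. In the first set the capitals mark an A box (TNGNNNA followed by NNGG or by NNNGG) and, after it, a B box (GTTCNANNC), the elements of tRNA genes. These 4 members are intergenic with respect to protein-coding genes, and none of the printed windows holds CGGAAG. The Trmt61b window holds 1 copy of AGGAAG, the other ETS word marked in the second set, which is left in lower case here.
Gm11205, chr11:79518132-79518232, plus strand: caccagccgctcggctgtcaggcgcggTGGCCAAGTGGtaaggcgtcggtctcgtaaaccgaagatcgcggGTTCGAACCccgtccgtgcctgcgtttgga
4930555B11Rik, chr2:57034482-57034582, plus strand: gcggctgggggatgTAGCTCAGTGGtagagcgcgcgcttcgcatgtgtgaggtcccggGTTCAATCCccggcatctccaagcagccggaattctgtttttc
Trmt61b, chr17:71948601-71948701, plus strand: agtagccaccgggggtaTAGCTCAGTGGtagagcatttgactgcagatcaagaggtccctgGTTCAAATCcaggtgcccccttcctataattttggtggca
B230208H11Rik, chr10:12642360-12642460, minus strand: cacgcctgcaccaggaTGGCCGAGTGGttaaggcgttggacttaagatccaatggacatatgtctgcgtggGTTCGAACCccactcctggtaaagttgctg

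In the second set the capitals mark CGGAAG or AGGAAG, forms of the ETS site, on either strand, and each window is printed on the strand of the noncoding transcript. The first 3 are strong members, and Snhg5 and Dleu2 are genes known for the small RNAs that they host. All 5 are intergenic with respect to protein-coding genes.
1300002E11Rik, chr16:21794330-21794430, plus strand: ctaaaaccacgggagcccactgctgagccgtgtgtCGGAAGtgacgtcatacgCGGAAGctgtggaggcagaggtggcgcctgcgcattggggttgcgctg
G730013B05Rik, chr16:50526177-50526277, plus strand: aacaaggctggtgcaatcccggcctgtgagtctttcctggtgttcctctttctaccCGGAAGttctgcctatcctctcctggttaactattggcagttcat
2810008D09Rik, chr11:116938044-116938144, plus strand: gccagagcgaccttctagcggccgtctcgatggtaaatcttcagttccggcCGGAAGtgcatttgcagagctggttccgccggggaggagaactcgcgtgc
Snhg5, chr9:88417962-88418062, minus strand: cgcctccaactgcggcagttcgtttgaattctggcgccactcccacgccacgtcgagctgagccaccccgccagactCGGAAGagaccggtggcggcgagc
Dleu2, chr14:62267765-62267865, minus strand: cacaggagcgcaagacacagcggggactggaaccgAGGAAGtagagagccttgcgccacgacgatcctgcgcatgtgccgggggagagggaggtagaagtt

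In 1300002E11Rik 2 copies of CGGAAG stand close together, and the other windows of this set hold 1 ETS word each. The Dleu2 window holds AGGAAG and no CGGAAG. A match is a description of the letters and not a measured binding site.

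The rule admits only summits within 1 kb of a noncoding start, and within that range most members lay upstream of it. The median distance from summit to start was 137 bp, and 63, 109, 166 and 203 of the 257 summits lay within 50, 100, 250 and 500 bp. Upstream of the start along the transcript lay 179 summits (69.6%, 95% interval 63.6 to 75.2), and at or downstream of it 78, with a median position of -52 bp. The nearest protein-coding start was a median of 21356 bp away, with a range of 2015 to 799757 bp, and 56 members lay over 50 kb from any. By gene type, 137 members (53.3%) were nearest to a lincRNA gene and 120 to a processed_transcript gene. By transcript type, 123 were lincRNA, 59 antisense and 63 processed_transcript. Most members, 199 (77.4%), lay outside protein-coding genes, 44 in their introns and 14 in their exons. Of the 58 inside a protein-coding gene, 48 were nearest to a transcript on the opposite strand of that gene. Only 9 members had noncoding starts on both strands within 1 kb.

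**Figure D1:**
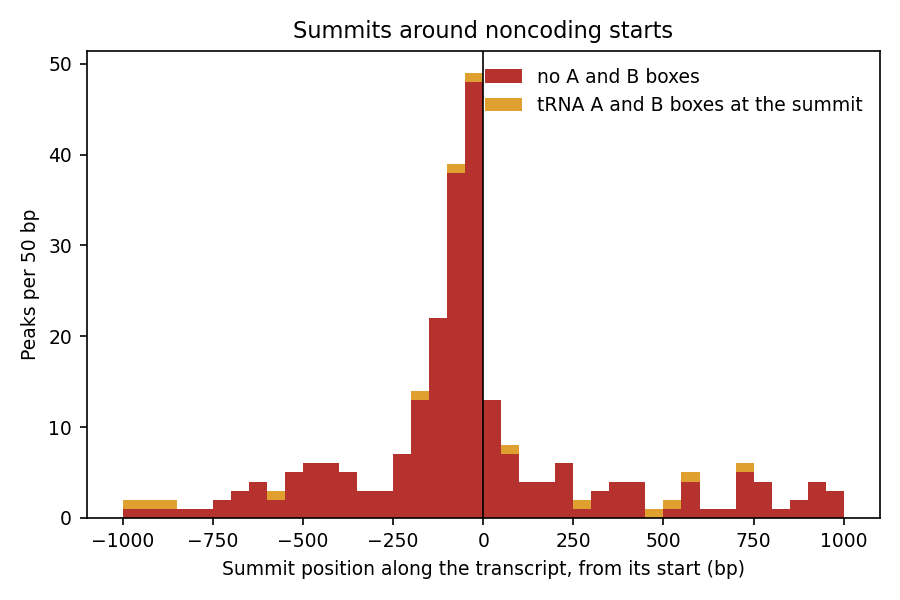
Number of member peaks per 50 bp (y axis) by the position of the summit along the noncoding transcript, in bp from its start (x axis), with upstream to the left. Red bars are members without and yellow bars members with tRNA A and B boxes at the summit. Upstream of the start lie 179 of 257 summits, most of them close to it.

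Peaks at noncoding starts were intermediate in strength between peaks at protein-coding starts and peaks away from starts. The signal of a peak is the caller's value, whose scale is not given, and it is used here to rank peaks within a list. The median signal was 78.5 (quartiles 49.3 and 159, range 36.7 to 1486) for the 257 members. It was 109 for the 8790 peaks within 1 kb of a protein-coding start and 58.4 for the 8660 peaks over 2 kb from every start. Ranked within the whole list, the median percentile was 54.2 (95% interval 44.5 to 60.0) for members, 66.3 (65.3 to 67.3) at protein-coding starts and 38.4 (37.5 to 39.2) away from starts. The interval of the members includes the middle of the list and overlaps neither of the other classes. The strongest decile of the list, 1881 peaks, held 25 members, which is 9.73% of them, and 17.9% of the peaks at protein-coding starts and 2.89% of those away from starts.

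**Figure D2:**
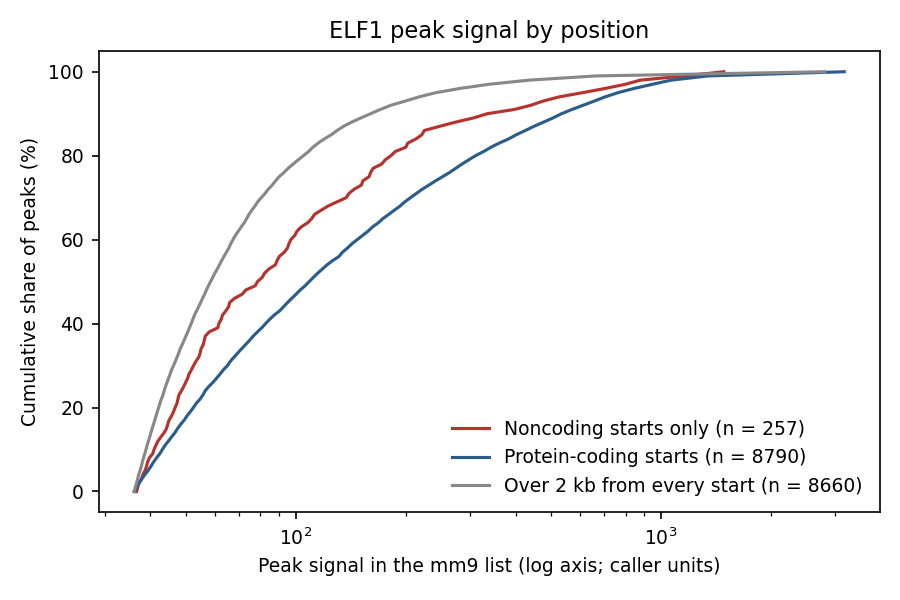
Cumulative share of peaks in percent (y axis) by peak signal in the mm9 list (log x axis, caller units) for members (red), peaks at protein-coding starts (blue) and peaks over 2 kb from every start (grey). The medians are 78.5, 109 and 58.4, and the red curve lies between the other curves through most of its range.

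Most of the very strongest members held the promoter boxes of tRNA genes. Of the 12 strongest members, 8 held an A box and a B box at the summit and no CGGAAG, and the other 4 held CGGAAG. The search asked for a B box 20 to 90 bp after an A box on 1 strand within 100 bp of the summit, and it was added after these sequences were seen. Below the strongest of these 8, Gm11205 had a signal of 1229, with its summit 50 bp downstream of the annotated start, and Gm11527 had 1058, with the summit 30 bp upstream. Lower in this group were Gm17494 at 885, 4930555B11Rik at 824, Trmt61b at 823, B230208H11Rik at 767 and Gm11291 at 715. For Trmt61b, Gm17494 and Gm11291 the summit lay over 500 bp from the noncoding start, so the boxes and not the start coincide with the summit. In all, 13 members (5.06%, 95% interval 2.72 to 8.49) held both boxes, beside 1.41% of all mm9 peaks. The share was 1.56% in equally long windows placed 500 bp left and right of the member summits, and 0.502% around all noncoding starts over 2 kb from protein-coding starts.

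Signal was high in most but not all members with boxes. Their median was 767, against 74.6 for the 244 members without boxes, and they made up 9 of the 25 members in the strongest decile. In the whole list, peaks with boxes were 120 of the 1881 in that decile. They were 26 of 1571 at protein-coding starts and 72 of 250 away from starts. The ninth member with boxes by signal, 397, lay in an exon of Hes7, nearest to 9130213A22Rik, and held CGGAAG as well. The other 4 were weaker, at 137 (a further peak of 4930555B11Rik), 78.2 (Gm16899), 62.1 (Gm15777) and 47.8 (a further peak of Gm2885). Peaks with boxes were strong elsewhere too, with a median of 289 in 54 peaks at protein-coding starts and 192 in 164 peaks away from starts, so strength at such boxes was seen in every class. Without the 13 members, the median percentile of the rest was 51.7, and 31.6% of them held CGGAAG.

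Named tRNA genes lay beside these members in the RefSeq annotation of mm10 and had peaks in both replicates. By gene name, 7 members with boxes could be matched to RefSeq, and 6 of them had a tRNA gene within 2 kb of the 5′ end of the noncoding gene (both peaks of 4930555B11Rik among them), against 2 of 175 matched members without boxes. Those 2 were further peaks of Trmt61b and 9130213A22Rik, which have such a neighbour already counted. At n-TTcgt3 beside Gm11205 the mm10 signal was 360 in the optimal list, 140 in replicate 1 and 225 in replicate 2. At n-TLtaa3 beside B230208H11Rik it was 347, 148 and 199, and at n-TCgca52 beside Trmt61b 315, 126 and 191. The neighbour of 4930555B11Rik, n-TAcgc8, had 266, 103 and 155, and that of 9130213A22Rik, n-TRtct4, had 202, 90.3 and 113. Replicate 2 was the higher in all 5. Across the genome, 216 of 408 RefSeq tRNA genes (52.9%) had an optimal summit within 100 bp, with a median signal of 297 against 39.7 for the whole optimal list. In the strongest 29086 entries of each replicate, the length of the optimal list, 219 tRNA genes had a summit in replicate 1 and 220 in replicate 2.

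Other small RNA genes lay near a few strong members. Of the 257 members, 240 had no start of another RNA class within 1 kb in GENCODE M1. A snoRNA start lay near 8, a microRNA near 5, a small nuclear RNA near 3 and a misc_RNA near 1. The tRNA genes were named from RefSeq and do not enter these counts, so members beside them, such as Gm11205 and B230208H11Rik, are among the 240. At Gm13421 the summit of a peak of signal 599 lay 49 bp from the start of U6atac, a minor spliceosome RNA. At C920006O11Rik a peak of signal 447 lay 118 bp from 7SK, an RNA that holds back the elongation factor P-TEFb. Neither held CGGAAG, and both are RNAs made by RNA polymerase III.

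Members with an ETS word near the summit were stronger than those without. CGGAAG was found on either strand within 50 bp of the summit in 80 members (31.1%, 95% interval 25.5 to 37.2), beside 30.6% of all mm9 peaks, so the members held it about as often as the list as a whole. In equally long flanking windows, 500 bp to the left and right, it was in 20 of 514 (3.89%). The share was 42.9% at protein-coding starts and 18.98% away from starts, and 4.52% of windows around all noncoding starts over 2 kb from coding starts held it. Members with the word had a median signal of 124, and members without it 64.3. From the strongest to the weakest quartile of the members the word was in 49.2%, 32.8%, 21.9% and 20.3%. The interval of the strongest quartile, 36.6 to 61.9, does not overlap that of the weakest, 11.3 to 32.2.

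**Figure D3:**
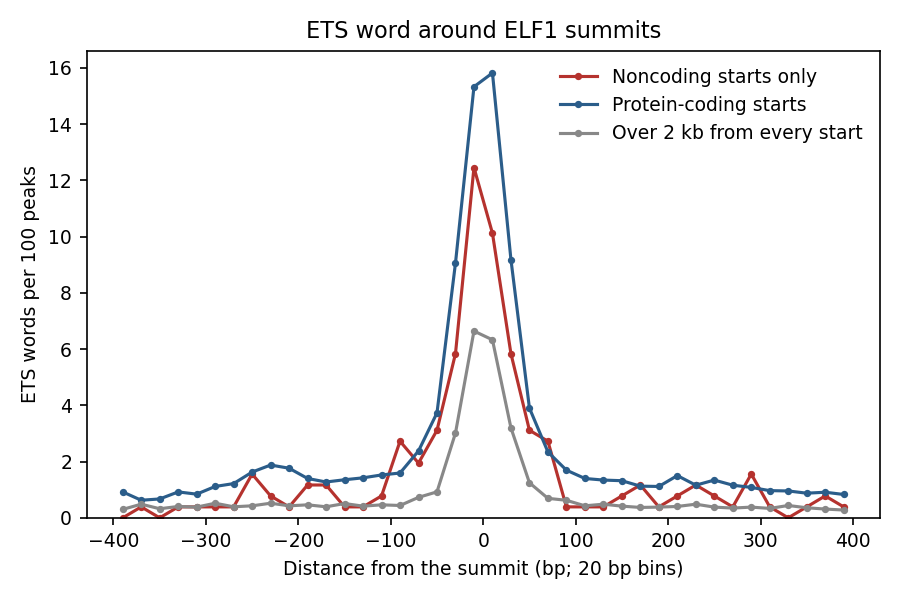
CGGAAG words per 100 peaks (y axis) in 20 bp bins by distance from the summit in bp (x axis), for members (red), peaks at protein-coding starts (blue) and peaks over 2 kb from every start (grey). The count is highest in the bins next to the summit in all 3 classes, 12.5 and 10.1 words per 100 peaks for members.

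The words sat close to the summit and on both strands. There were 96 words within 50 bp of the 257 summits, with a median offset of 15 bp, 34 of them centred within 10 bp and 58 within 20 bp. On the transcript strand lay 54 and on the other 42, and 11 members held more than 1. AGGAAG, a form with A in front of the core, was in 42.0% of members, close to the 43.3% of all mm9 peaks. Its share was 28.0% at protein-coding starts, 58.0% away from starts and 17.3% of noncoding starts. The longer CCGGAAGT, which contains CGGAAG, was in 18 members (7.004%), beside 8.16% of all mm9 peaks, 11.6% at protein-coding starts and 4.94% away from starts. The bare core GGAA, contained in all 3 forms, was in 92.2% of members (95% interval 88.2 to 95.2), beside 92.6% of all mm9 peaks. It was also common in the flanks of the members, at 66.3% (62.1 to 70.4). Of words of other factors, TGTGGTT, the RUNX word, was in 5 members, which is 1.95% beside 1.75% of the flanks. CCAAT, the NF-Y word, was in 45 (17.5%) beside 13.2% of the flanks.

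CpG-rich sequence was less common at members than at protein-coding promoters. A window within 150 bp of the summit was called CpG-rich when its GC share was over 50% and its observed over expected CpG ratio over 0.6. This held for 75 members (29.2%, 95% interval 23.7 to 35.2), beside 38.1% of all mm9 peaks. At protein-coding starts the share was 74.0% (73.1 to 74.9), and away from starts 4.83% (4.38 to 5.30), so the intervals of the 3 classes do not overlap. Among lincRNA genes 38.7% of members were CpG-rich and among processed_transcript genes 18.3%. Inside protein-coding genes the share was 10.3%, against 34.7% outside them. CpG-rich members lay nearer to the start, at a median of 86.0 bp against 195 bp for the others.

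Sequence content and strength went together within the members, and for CpG also in the other classes. At protein-coding starts the median signal was 131 with a CpG-rich window and 72.1 without. Away from starts it was 80.6 and 57.7. After setting aside the 13 with tRNA boxes, the 32 members with both CGGAAG and a CpG-rich window had a median signal of 176. The 45 with the word alone had 99.7, the 39 with a CpG-rich window alone 77.6, and the 128 with neither 60.8. The ranges overlapped widely, from 40.8 to 1201 with both and from 36.7 to 599 with neither. The strongest member of the first group was 1300002E11Rik at 1201, and of the word-only group G730013B05Rik at 658. Of the 244, 16 were in the strongest decile of the list, and 5 of these held no CGGAAG. Those 5 were Gm13421 at U6atac, Gm17589 (569), Gm16299 (493), C920006O11Rik at 7SK and 2010204K13Rik (412).

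**Figure D4:**
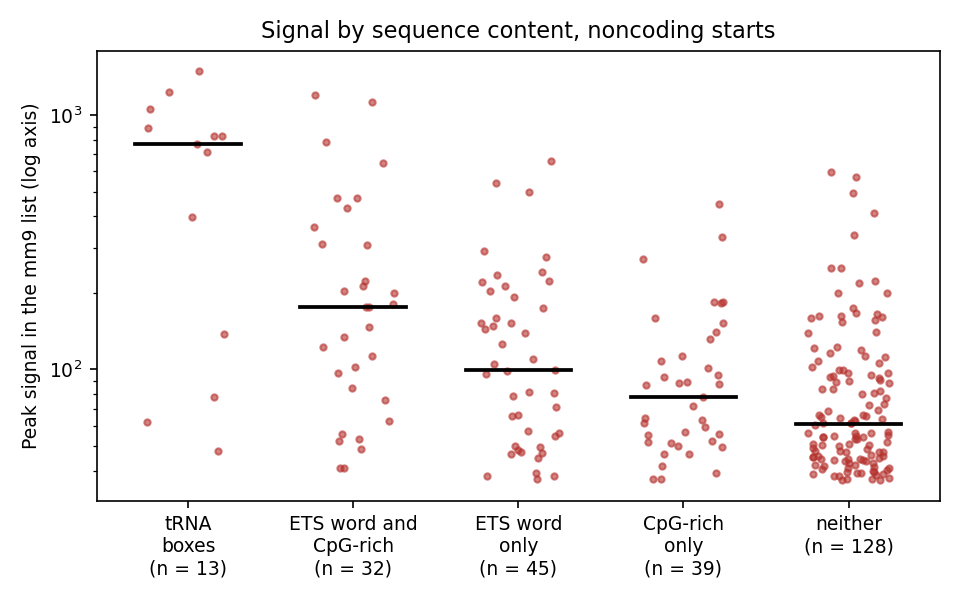
Signal of each member in the mm9 list (log y axis, caller units) by what the sequence at the summit holds (x axis). Each point is 1 member and each black line the median of its class. The 13 members with tRNA boxes have a median of 767, and the 128 with neither ETS word (CGGAAG) nor a CpG-rich window 60.8.

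Among the strong members without boxes, 1300002E11Rik, an intergenic lincRNA, had its summit 40 bp upstream of the start. Its mm10 signal was 504 in the optimal list and 251 in each replicate. G730013B05Rik, another lincRNA, had its summit 190 bp upstream and mm10 signals of 381, 178 and 199. At F630040L22Rik the peak (542) lay in an intron of Bsn, 24 bp upstream of the noncoding start. The peak of Gm16299 lay in an intron of Rbm20, 83 bp upstream of an antisense start. The X-linked 2010204K13Rik had mm10 signals of 245, 115 and 130, with the summit 111 bp upstream. In each of these with replicate values, replicate 2 was at least as high as replicate 1.

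Seen from the genes, few noncoding genes away from coding promoters had a peak. Of 3845 noncoding genes 705 (18.3%) had any mm9 peak within 1 kb of a start, beside 8223 of 22367 protein-coding genes (36.8%). Of all 814 peaks within 1 kb of a noncoding start, 557 (68.4%) also lay within 2 kb of a protein-coding start and so were no members. Among the 2625 noncoding genes with a start over 2 kb from every protein-coding start, 239 (9.10%, 95% interval 8.03 to 10.3) had a member peak within 1 kb. Genes of type lincRNA had one in 124 of 643 cases (19.3%), and genes of type processed_transcript in 115 of 1982 (5.80%). Genes with a CpG-rich start had one in 87 of 269 cases (32.3%, 26.8 to 38.3), and genes without in 152 of 2356 (6.45%, 5.49 to 7.52). With CGGAAG within 150 bp of a CpG-rich start the share was 46.7%, and without it 25.1%. At starts that were not CpG-rich the shares were 14.5% and 5.62%. For protein-coding genes the same split by CpG gave 59.0% and 9.25%. More than 1 member peak was nearest to 26 of the 228 genes, with 4 at 8030453O22Rik and 3 at 2610037D02Rik.

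Hosts of small nucleolar RNAs were the best represented of the functional lists. These genes release snoRNAs, many of which guide the modification of ribosomal RNA, from their introns. Of 14 found with a noncoding gene type, 8 had a member peak, 3 had a peak that lay within 2 kb of a protein-coding start (Snhg1, Snhg3 and Snhg9), and Gas5, Snhg4 and Snhg18 had none within 1 kb. Beside this, 9.10% of the noncoding genes with a start over 2 kb from coding starts had a member peak. Of those with a CpG-rich start, 32.3% had one. The 14 hosts were not limited to genes with such a start, so these shares have unlike bases. Snhg20, annotated as 2810008D09Rik, had the strongest at 474, with its summit 10 bp upstream of the start and mm10 signals of 293, 135 and 157 in the optimal list and replicates 1 and 2. Snhg12 had 184, with mm10 signals of 137, 50.6 and 84.6. Dancr, annotated as 2700023E23Rik, had 152, with mm10 signals of 107, 53.9 and 53.9. Snhg17 (9430008C03Rik) had 122, with its summit 8 bp downstream of the start. Epb4.1l4aos (2410004N09Rik) had 222. Snhg5 had 96.9, Snhg15 (Gm11974) 88.4 and Snhg7 87.9. Snhg20, Snhg17, Snhg5 and Epb4.1l4aos held CGGAAG, and all 8 had a CpG-rich window. Replicate 2 was the higher in Snhg20, Snhg12, Snhg17, Snhg5 and Snhg7, while Dancr was level and Snhg15 had no matched entry at the summit in replicate 1.

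In the other lists most genes had no member peak, as is so for noncoding genes in general. Of the noncoding genes with a start over 2 kb from coding starts, 9.10% had one. Among genes listed as microRNA hosts, Dleu2, whose microRNAs are lost in chronic lymphocytic leukaemia, had member peaks of 159 and 50.1. Mirt1, annotated as 5830416P10Rik, had 106 and 83.7. The synonym search for Mirt1 also returned 4833407H14Rik, with a peak of 68.9. RefSeq lists 4833407H14Rik as a gene of its own, and it lies on the opposite strand in GENCODE M1. Dleu2 and Mirt1 were 2 of 8 listed genes found with a noncoding gene type of the rule. The host annotated for Mir22 had a peak excluded by a coding start, and the nearest peak to Mir17hg lay 1978 bp away. Mir155, Mirg, Mir124a-1hg and Mir9-3hg had none within 1 kb. Among 5 genes of the X inactivation centre or the X chromosome, Jpx (Enox), an activator of Xist, had a peak of 48.7 and Ftx (B230206F22Rik) one of 89.0. No peak lay within 1 kb of Xist, the RNA that coats the inactive X, of its antisense Tsix or of Firre. Of 6 imprinted genes only Nespas, antisense within the Gnas locus, had member peaks, of 55.7 and 47.2. H19, Meg3, Rian, Airn and Igf2as had none. Among 6 RNAs listed as widely expressed or nuclear, Pvt1, beside Myc, had a peak of 37.3, 717 bp downstream of a start. Tug1 had a peak of 640 that was excluded by a coding start, Neat1 one of 111 that lay 1287 bp away, and Malat1, Miat and 1700020I14Rik none within 1 kb. Of 6 genes on the list drawn up as immune or p53-linked, which was not a strict class, Trp53cor1 (Gm16197), induced by p53, had 38.1. Morrbid (Gm14005), beside Bcl2l11, had peaks of 54.8 and 56.1 and held CGGAAG in both, while Gm16685, Lincenc1, Gm12840 and Rmst had none. Of 13 genes listed as developmental and neural markers of other tissues, 0 had a member peak and 1, Hotairm1, a peak excluded by a coding start. Miat and Rmst are on this list and also on an earlier one, so they are counted under both. So short a list cannot tell 0 from the share of 9.10% over noncoding genes. The other 12 (Hotair, Hottip, Fendrr, Sox2ot, Dlx6os1, Dlx1as, Six3os1, Rmst, Miat, Hoxaas3, Hoxa11os and Tunar) had none within 1 kb.

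The replicates agreed closely at the members that could be placed in mm10. By shared sequence with RefSeq promoters, 84 members were located there. They were stronger than the rest, with a median mm9 signal of 96.9 against 62.5 for the 173 not located, so what follows describes the stronger and better annotated members. All 84 had an optimal summit within 100 bp, 79 a conservative one, and 77 (91.7%) an entry in the relaxed list of each replicate. In the strongest 29086 entries of both replicates lay 73 (86.9%), beside 91.0% of 5392 located peaks at protein-coding starts and 83.8% of 191 located peaks away from starts. Replicate 2 had the higher signal at 69 of the 77, with a median log2 difference of 0.57 (SD 0.56, n = 77). The same difference was 0.36 at protein-coding starts and 0.38 away from starts, and it is a difference in caller units between separately scaled lists. Across the 77 peaks, which share their libraries, Pearson's r of the log2 signals was 0.86 and Spearman's rho 0.86. At protein-coding starts they were higher, 0.90 and 0.93, and away from starts 0.86 and 0.86. The largest departure among the 77 members was 2410006H16Rik, a snoRNA host, with 7.95 in replicate 1 and 74.8 in replicate 2.

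**Figure D5:**
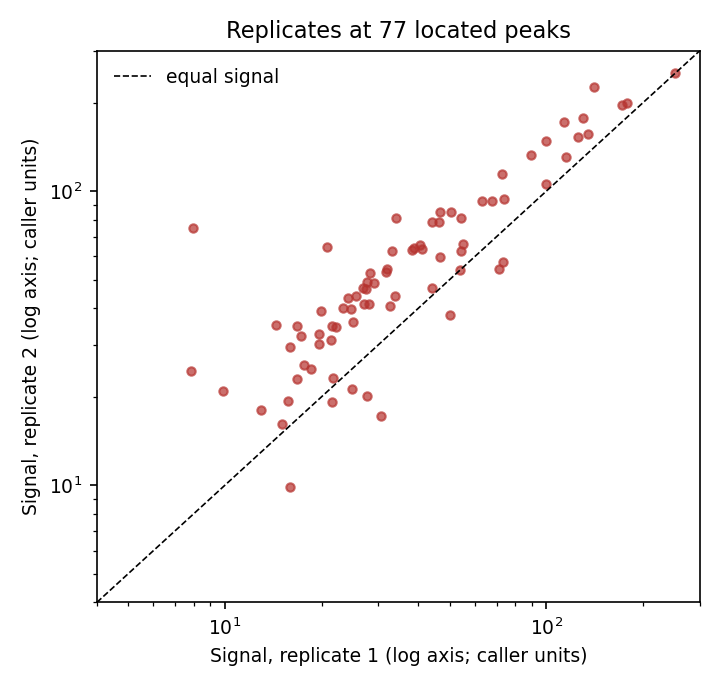
Signal in the relaxed mm10 list of replicate 2 (log y axis) against replicate 1 (log x axis), caller units, for the 77 members located in both lists, 1 point each. The dashed line marks equal signal, and 69 of the 77 points lie above it.

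Matching by gene name gave a larger but looser view of the same genes. Of the 228 genes 158 matched a RefSeq gene of mm10, and 138 of these (87.3%, 95% interval 81.1 to 92.1) had an optimal summit within 1 kb of the 5′ end. Among all 1368 matched noncoding genes with a start over 2 kb from coding starts the share was 16.3%, and among the 1204 of them without a member peak 6.56%. The mm9 and mm10 lists come from the same libraries, so this is agreement between lists and not an independent experiment.

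Some members lie at genes that a later annotation calls protein-coding. By name or sequence, 17 members (6.61%) were at a RefSeq protein-coding gene. Among them are Gm10044 (1126), 1810010H24Rik (786), 5430417L22Rik at Inafm2 (649), Gm17372 at Zfp53 (496) and 1810058I24Rik (431). Of the 17, 11 held CGGAAG (64.7%) and 10 a CpG-rich window, against 28.8% and 27.1% of the other 240. Of the 182 members matched by name, 153 were lncRNA in RefSeq and 14 protein-coding. On chromosome 11 lay 44 members (17.1%, beside 11.6% of all peaks), on chromosome 2 36 (14.01% beside 7.26%) and on X 10 (3.89% beside 1.45%). Members can lie only at annotated noncoding starts, and the share of those starts on each chromosome is not given here.

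At the limits of the rule, the members farthest from a noncoding start were Gm11537 at 995 bp (signal 65.9) and 9530027J09Rik at 990 bp (41.3), and the nearest peaks beyond it were Gm17556 at 1004 bp (56.5) and Gm17591 at 1010 bp (132). The members nearest to a protein-coding start were A930015D03Rik at 2015 bp (39.0) and 1110028F11Rik at 2144 bp (54.1), and just too close were Gm11458 at 1907 bp (45.3) and 2210408F21Rik at 1896 bp (48.7).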

How the data were processed

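ELF1 was measured by ChIP-seq in 2 biological replicates, and the authors deposited narrowPeak lists. The README text deposited with them says that the mm9 list came from both replicates' alignments, each relaxed mm10 list (300000 entries) from 1 replicate and a control, and the optimal and conservative lists from the relaxed lists by the irreproducible discovery rate. Aligner and caller: not given in the sources used here, nor is the scale of the signal. Column 7 of the deposited lists is the caller's signal. Column 9 of the deposited mm9 list holds −log10 q-values by the format, and no result rests on it.

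Summits were placed with Python 3.11.15, NumPy 2.4.6, pandas 2.3.3, SciPy 1.17.1 and pysam 0.24.0 on all GENCODE M1 transcript starts and the NCBIM37 sequence, and drawn with matplotlib 3.10.9. Of the 5 gene types of the rule, 2 occur as gene types in this annotation, lincRNA and processed_transcript. No coordinate was converted between builds. Members were placed in mm10 (RefSeq, GRCm38.p6) by gene symbol or synonym with the GENCODE strand, and by at least 20 shared 40-base words, 90% of them at 1 position, with the RefSeq promoter sequences. Nuclear tRNA genes were named from RefSeq only. Of 87 listed names, 66 genes were found in GENCODE M1, 37 by symbol and 29 by synonym, 56 with a noncoding gene type of the rule. One group allows no test between samples, so counts, medians and exact intervals are given. The members and lists were chosen with earlier results of these data known. The word and box searches were tested on simulated sequences, and the assignment of summits to starts on simulated positions. The matching to mm10 by name or shared sequence was not tested in this way. Named are the 12 strongest members and the 3 strongest of each gene type, except the strongest member of all, which is not reported here, listed genes and members at the limits. The tRNA boxes, synonyms, sequence matching, RefSeq coding check and further members named for strength or replicate values were chosen after the data were seen.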

Additional observations from a re-analysis of the deposited data

How the results depend on the processing

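Of 65 recomputed values, 50 moved by less than the 95% interval of the main value, or by less than 1.5 times for a count. Against the whole list, the CpG-rich share (38.1% of all peaks) crossed to above it with lincRNA only, the share with CGGAAG (30.6% of all peaks) to below it, 28.8%, without members at RefSeq protein-coding genes, and the median percentile from 54.2 to 48.1 with starts within 2 kb. The number of members, 257, was 139 with lincRNA genes only (the same without processed_transcript) and 135 in the stronger 50% of the list, where 133 in place of 239 genes had a member peak. The CpG-rich share, 29.2%, was 35.5% within 0.5 kb of a start, 39.6% for lincRNA only and without processed_transcript, 36.3% in the stronger 50% of the list and 19.8% under a stricter CpG rule. The share with CGGAAG, 31.1%, was 40.7% in the stronger 50% and 19.1% within 25 bp, and other words gave 7.004% (CCGGAAGT), 92.2% (GGAA) and 42.0% (AGGAAG). Matched genes with an optimal mm10 peak, 87.3%, fell to 77.8% within 0.5 kb, and using 1 replicate at a time gave 84.2% to 87.3%. Leaving out chromosome 11, members at RefSeq protein-coding genes or members with tRNA boxes, or keeping 1 peak per gene, choices made after seeing the data, moved no value past the interval or 1.5 times. The planned share of summits in soft-masked sequence was not run, because the reference used is not soft-masked. No paired analysis was possible because no result comes from a test between groups. Read depth is unknown from the lists, and what it limits was not tested.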
